A study of Mus musculus with 9 samples.

Results

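The genes described here are 135 mouse transcription factors of body plan and organ formation, out of 23420 genes in the deposited expression table. They were matched by symbol, with no expression value in the rule, as numbered members of these families: the HOX clusters A to D, Meis and Pbx, Pax, Lhx, Six2 to Six6, Eya, Tbx, Dlx, Irx, Nkx, Sox, and the Fox genes of classes C, D and F. Of the 135, 48 were above 0 RPKM (RPKM scales reads to gene length and to a depth term for each library) in at least 1 library, 19 reached 1 RPKM in at least 1 library, and 9 reached 1 RPKM in at least 2 libraries and entered the tests. The other 87 were listed at 0 in all 9 libraries.

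Cells positive for Mac1, the integrin of granulocytes, monocytes and some dendritic and NK cells that Itgam helps to encode, were sorted from C57BL/6 bone marrow, 100 cells to a library, and amplified as full-length cDNA by Smart-seq2. All 3 groups carried Ezh2 fl/fl and Runx1 fl/fl alleles. The 3 WT libraries had these floxed alleles and no other labelled allele, so WT here means undeleted rather than unmodified. The 2 ITD libraries added Flt3 ITD/+, an internal tandem duplication that activates the Flt3 receptor, and the 4 DKOITD libraries added both Flt3 ITD/+ and Rag1Cre+. Rag1Cre is a Cre of early lymphoid progenitors, the labels do not say what share of the Mac1+ cells had deleted either gene, and gene-level values do not measure the deleted exons. The labels give no age, sex or disease state of the mice, and do not state that each library came from its own mouse. The comparison of DKOITD with ITD carries the question of what loss of Ezh2 and Runx1 does to these genes in Mac1+ cells, ITD with WT that of Flt3 ITD/+ alone, and DKOITD with WT that of all the alleles together.

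As background, HOX proteins specify position along the body axis and bind DNA together with Pbx and Meis proteins, the TALE homeodomain cofactors. In blood, genes of the HOX A and HOX B clusters and Meis1 are active in stem and progenitor cells and are shut down as myeloid cells mature. In cells that do not use them, most developmental regulators of these families are held silent by Polycomb repressive complex 2, whose catalytic subunit Ezh2 methylates lysine 27 of histone H3, typically at promoters rich in the dinucleotide CG. Runx1 is a transcription factor of blood formation that binds the sequence TGTGGT.

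The promoters of 5 members are shown because they differ widely in CG density and in expression: Pbx2, which fell in DKOITD, Hoxb4, the HOX gene with the most reads, Tbx6, low in every library, Hoxa10, a HOX A gene with reads mainly in DKOITD, and Hoxa13, listed at 0 in all libraries. Each is the 250 bases before the first start that RefSeq lists (build GRCm38.p6), 5′ to 3′ on the gene's strand, with every CG in capitals. None of the 5 windows touches an annotated exon. That of Pbx2 lies inside the GENCODE gene model, which starts at 34591266, upstream of the RefSeq start used here.
Pbx2: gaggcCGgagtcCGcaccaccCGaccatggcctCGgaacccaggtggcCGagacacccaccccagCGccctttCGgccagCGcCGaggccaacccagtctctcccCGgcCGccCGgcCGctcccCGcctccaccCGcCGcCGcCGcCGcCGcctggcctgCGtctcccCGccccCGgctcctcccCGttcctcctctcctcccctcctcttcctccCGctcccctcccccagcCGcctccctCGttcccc
Hoxb4: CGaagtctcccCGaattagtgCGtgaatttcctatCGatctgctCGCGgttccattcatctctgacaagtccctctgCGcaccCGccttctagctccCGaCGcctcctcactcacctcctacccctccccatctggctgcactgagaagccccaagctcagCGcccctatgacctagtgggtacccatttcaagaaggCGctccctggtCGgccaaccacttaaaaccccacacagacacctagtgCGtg
Tbx6: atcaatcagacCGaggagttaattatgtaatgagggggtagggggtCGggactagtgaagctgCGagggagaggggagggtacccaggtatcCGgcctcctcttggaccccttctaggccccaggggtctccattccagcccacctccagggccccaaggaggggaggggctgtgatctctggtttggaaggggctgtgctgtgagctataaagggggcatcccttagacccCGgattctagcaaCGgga
Hoxa10: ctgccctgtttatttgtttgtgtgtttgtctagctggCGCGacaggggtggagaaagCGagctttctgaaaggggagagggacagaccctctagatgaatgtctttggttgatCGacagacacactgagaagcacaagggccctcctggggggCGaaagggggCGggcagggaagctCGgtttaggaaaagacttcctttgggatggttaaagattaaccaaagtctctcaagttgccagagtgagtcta
Hoxa13: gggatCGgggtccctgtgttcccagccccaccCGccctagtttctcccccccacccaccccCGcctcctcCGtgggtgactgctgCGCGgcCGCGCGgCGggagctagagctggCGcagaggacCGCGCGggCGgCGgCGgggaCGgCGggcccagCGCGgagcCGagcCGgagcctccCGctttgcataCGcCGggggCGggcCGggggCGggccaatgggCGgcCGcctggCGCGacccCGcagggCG
The Pbx2 window holds 27 CG dinucleotides (chr17:34592009-34592258, plus strand), Hoxb4 14 (chr11:96318017-96318266, plus strand), Tbx6 6 (chr7:126781233-126781482, plus strand), Hoxa10 7 (chr6:52240855-52241104, minus strand) and Hoxa13 35 (chr6:52260881-52261130, minus strand). The CG-dense promoters of Pbx2 and Hoxa13 thus belonged to a gene read in every library and to a gene read in none. RefSeq start windows were matched by symbol for 91 of the 135 members, with a median of 14 CG each, against a median of 10 for the 16375 matched genes of the whole table. Over the 91 windows the number ran from 1 (Tbx22) to 35 (Hoxa13 and others), so the sparsest are not among those printed. Among the 54 matched members listed at 0 in every library the median was 13.5, whereas among the 5108 matched genes of the table at 0 in every library it was 3. At least 15 CG stood in the windows of 46.3% of these silent members and of 13.3% of all silent genes. For the 37 matched members above 0 the median was 14, the same as for all 11267 matched genes above 0. TGTGGT, on either strand, was found in the windows of 5 of 91 members (5.49%) and in 12% of all matched windows, and in none of the 5 printed here. These counts describe letters in a window, not binding.

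The libraries differed in depth. Gene-level reads recovered from the RPKM values ranged from 2825728 (DKOITD 2) to 13301867 in DKOITD, were 5108022 and 13744891 in ITD, and ranged from 14770406 to 23124435 in WT. A single read of a gene with 2000 bases was worth 0.137 RPKM in DKOITD 2 and 0.0267 RPKM in WT 1, and a count of 0 allowed up to 0.410 and 0.0801 RPKM there (3 reads, per library). Reads from PCR-amplified cDNA without molecular identifiers are not independent molecules, so these limits cover counting error only. WT 2 stood apart, with a median correlation of 0.83 with the other libraries across tested genes where the other 8 had 0.878 to 0.920. Itgam was read in every library, at 11 to 39.0 RPKM in DKOITD, 78.1 and 97.3 in ITD and 90.3 to 143 in WT. The summed RPKM of 9 neutrophil markers, all above 0 in every library, was 34995 to 263212 in DKOITD, 676929 and 722253 in ITD and 864547 to 1176880 in WT. That of 10 conventional dendritic cell and MHC class II markers was 9406 to 38055, 4212 and 11371, and 44.3 to 1202, so DKOITD lay wholly below WT for the first list and wholly above it for the second. Of all 9 marker lists, summed RPKM in DKOITD lay wholly above WT for 3, wholly below it for 4 and overlapped for 2, NK and cytotoxic, and stromal and endothelial. The other lists above were B lineage, at 55.9 to 95.8 in DKOITD, 9.65 and 23.3 in ITD and 5.25 to 17.5 in WT with Igll1 and Vpreb3 at 0 throughout, and plasmacytoid dendritic, at 58.5 to 281, 45.2 and 65.8, and 11.5 to 23.0, with Klk1 and Pacsin1 at 0 throughout. The other lists below were T lineage, at 2.52 to 7.70, 2.44 and 17.6, and 9.16 to 13.7 with Bcl11b, Cd3e, Lat and Themis at 0 throughout, stem and progenitor, at 12.7 to 17.5, 19.7 and 31.9, and 24.1 to 40.1 with Mycn at 0 throughout, and erythroid, at 0 to 1.40, 0 and 2745, and 17.8 to 17156. In WT 1, ITD 1 and ITD 2 the T lineage sum was Cd3d alone. The number of T lineage genes above 0 was 2 to 4 in DKOITD and 1 to 3 in WT, and limma called none of the 2 tested against WT. Of the stem and progenitor genes it called Prom1 lower in DKOITD and Cd34 higher. Ezh2 mRNA was 1.54 to 18.1 RPKM in DKOITD, 12.9 and 19.0 in ITD and 2.05 to 12.4 in WT, and Runx1 mRNA 10.4 to 17.6, 4.42 in both and 3.53 to 13.0. Neither targeted gene passed the threshold in any comparison by limma. Of the DKOITD libraries, DKOITD 4 alone has a label number in the same range as the ITD and WT libraries (above 300), and the labels do not say what the numbers stand for.

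Few of these developmental factors were read in any library. DKOITD libraries 1 to 4 had 14, 12, 16 and 16 members above 0 RPKM, the ITD libraries 12 and 16, and the WT libraries 18, 21 and 14. The groups overlapped, with means of 14.5 ± 1.91 (SD, n = 4), 14 ± 2.83 (n = 2) and 17.7 ± 3.51 (n = 3). In every library this was 8.89% to 15.6% of the 135, while 44.4% to 50.2% of all genes in the table were above 0. WT was also sequenced most deeply. Thinned in expectation to the 2825728 reads of DKOITD 2, the numbers became 12.7, 12, 13.7 and 12.6 in DKOITD, 11.8 and 12.3 in ITD and 10.1, 11.8 and 9.67 in WT. At that common depth the WT mean of 10.5 ± 1.13 lay below the DKOITD mean of 12.8 ± 0.720, without overlap between those groups, and the count over all genes moved the same way, from 9153 to 10390 in WT against 10896 to 11482 in DKOITD.

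At 1 RPKM or more stood 4, 8, 8 and 9 members in DKOITD, 8 and 6 in ITD and 7, 8 and 5 in WT. These counts overlapped fully, with means of 7.25 ± 2.22 (n = 4), 7 ± 1.41 (n = 2) and 6.67 ± 1.53 (n = 3). No more than 6.67% of the members reached 1 RPKM in any library, against 33.1% to 41.1% of all genes. Scaled to each library's recovered reads, the counts at 1 or more were 5, 8, 11 and 9 in DKOITD, 7 and 6 in ITD and 5, 7 and 4 in WT. The means were then 8.25 ± 2.5 (n = 4), 6.5 ± 0.707 (n = 2) and 5.33 ± 1.53 (n = 3), further apart than on the RPKM scale and still overlapping.

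**Figure D1:**
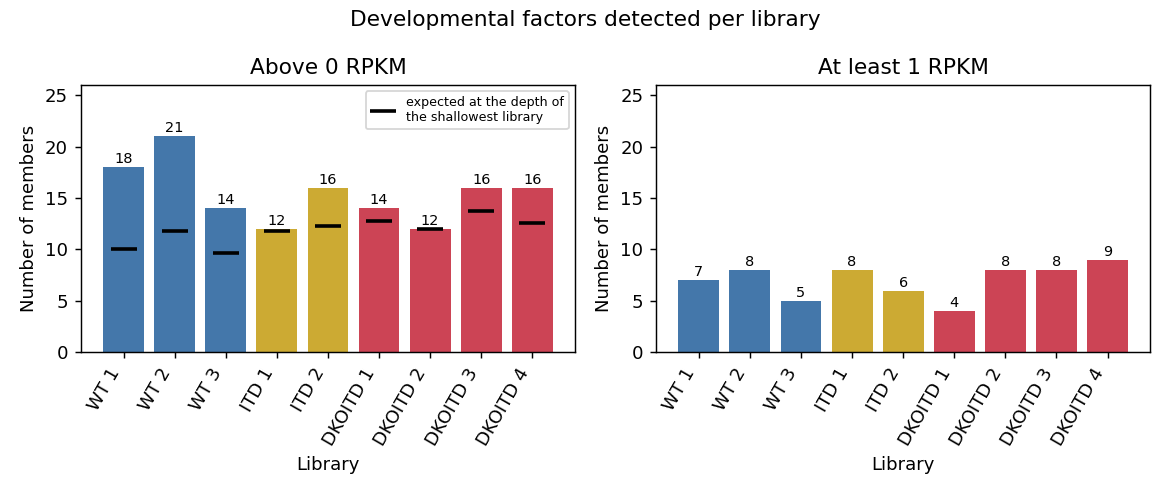
Number of the 135 members above 0 RPKM (left) and at or above 1 RPKM (right) in each library, coloured by group, with short lines at left for the number expected at the depth of the shallowest library. The 4 DKOITD libraries span 12 to 16 members above 0 and the 3 WT libraries 14 to 21, while the short lines run from 12 to 13.7 in DKOITD and from 9.67 to 11.8 in WT.

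Detection was sporadic from library to library. Of the 48 members above 0, 21 (43.8%) were found in exactly 1 library and 3 (6.25%) in all 9, whereas 15.8% of the 15566 genes above 0 were found in 1 library and 49.7% in all 9. Only Pbx2, Hoxb4 and Eya3 were read in all 9 libraries. In 16 of the 21 members found in 1 library, that library held 1 to 3 reads. All 3 groups shared 11 of the 48 members (22.9%, against 68.3% of all genes above 0), 13 were found only in WT, 8 only in DKOITD and 4 only in ITD. These were 27.1%, 16.7% and 8.33% of the 48, against 9.41%, 8.89% and 2.15% of all genes above 0. Most of the 13 were supported by few reads in these deeper libraries, such as Foxd3, Lhx9, Sox10 and Nkx6-1 with 1 read each in WT 1.

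The families differed in how much of them was read. The TALE cofactors were read most completely, with 5 of 6 Meis and Pbx genes above 0 and 5 at 1 RPKM or more in at least 1 library. Eya, whose proteins are phosphatases that act as coactivators of the homeodomain proteins Six2 to Six6, had 3 of 4 above 0, but all 5 of those partners were listed at 0 throughout. HOX A had 7 of 10 above 0, HOX B 4 of 10, HOX C 1 of 9 and HOX D 2 of 9. Sox had 8 of 19, Lhx and the Fox genes 4 of 8 each, Tbx 4 of 13, Pax 2 of 9, Nkx 2 of 13, and Dlx and Irx 1 of 6 each. The silent members included Pax5, the factor that fixes B cell identity, Tbx21, which encodes T-bet of type 1 T and NK cells, and the endoderm factor Sox17.

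**Figure D2:**
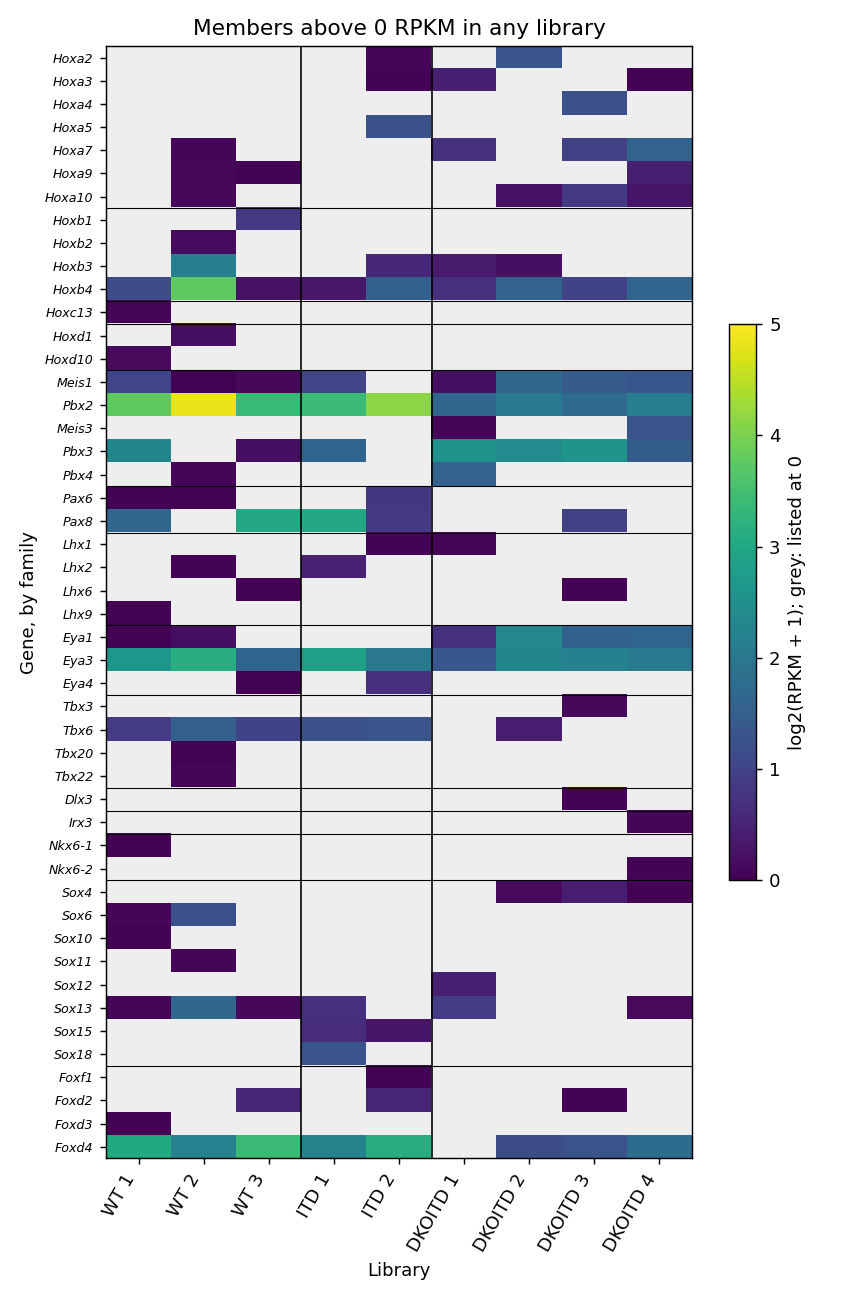
Level of each of the 48 members above 0 RPKM in any library, as log2(RPKM + 1), with genes by family in rows, libraries by group in columns, and grey where a gene is listed at 0. The continuous rows are Pbx2, Hoxb4 and Eya3, read in all 9 libraries, and most other rows have colour in a few libraries.

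In DKOITD against WT, 3 of the 9 tested members passed the threshold (limma on log2(RPKM + 1), adjusted p below 0.05): Pbx2 and Foxd4 fell and Eya1 rose. Over all 10868 genes tested the same test called 12.7%, with 7.43% higher and 5.27% lower. The members' median log2 difference was -0.48, against 0.17 for all genes tested. Groups did not overlap for 4 of the 9 members, 1 higher and 3 lower, where 25% of all genes did not overlap (14.1% higher and 10.9% lower). With no filter on low values, 2 of the 48 members above 0 passed, Pbx2 and Tbx6, both lower, against 4.71% of all genes (1.82% lower). The 9 had to reach 1 RPKM in 2 libraries, and 3 did so without any library of 1 of these groups, Eya1 in DKOITD alone and Tbx6 and Pax8 in ITD and WT alone. The filter thus favoured a difference in these 3, and the counts above, which include Eya1 and Tbx6, say nothing of the members outside the test. A difference on the log2(RPKM + 1) scale understates that of a low gene, and, since separate mice are not stated, the p-values speak of the spread among the libraries alone, which may be technical. In bulk RNA of sorted cells, fewer cells of a kind and less RNA per cell cannot be told apart.

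Among the TALE cofactors, Pbx2, a widely expressed HOX partner (chr17:34591266-34597400, plus strand, mm10), was at 2.16, 3.13, 2.34 and 3.38 RPKM in DKOITD, 9.66 and 16.5 in ITD, and 12.6, 27.7 and 9.52 in WT. The 4 DKOITD libraries were tightly grouped and all lay below the lowest of the other 5. The difference from WT was -2.11 ± 0.46 on the log2(RPKM + 1) scale (SE, adjusted p = 0.0139 by limma). The first 489 bases of the Pbx2 gene model overlap the end of Gpsm3 on the same strand. Gpsm3, itself lower in DKOITD (29.0 to 64.4 RPKM) than in WT (134 to 278), fell by 2.09 ± 0.36 (adjusted p = 0.00550), and the part of reads shared with it in the Pbx2 value was not tested. Of the 3 calls, that of Pbx2 withstood the most of 19 alternative settings, ending under 2, the term for the label number series (-1.87, adjusted p = 0.452) and the omission of WT 2 and DKOITD 2 together (-1.73, adjusted p = 0.0540).

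Pbx3, whose product partners with HOXA9 in leukaemia, was at 4.85, 4.34, 5.02 and 1.79 RPKM in DKOITD, 2.05 and 0 in ITD, and 3.86, 0 and 0.144 in WT. WT 1, with 173 reads, lay inside the DKOITD range, and WT 2 and ITD 2 had no read. The difference from WT, 1.43 ± 0.64, did not pass (adjusted p = 0.157), though it did without WT 1 (2.16, adjusted p = 0.0454). Meis1, the cofactor that cooperates with HOXA9 in myeloid leukaemia, was at 0.145, 2.23, 1.72 and 1.53 RPKM in DKOITD, 1.05 and 0 in ITD, and 1.07, 0.0257 and 0.0752 in WT. DKOITD 1 lay among the low libraries and the groups overlapped (0.77 ± 0.50, adjusted p = 0.313).

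**Figure D3:**
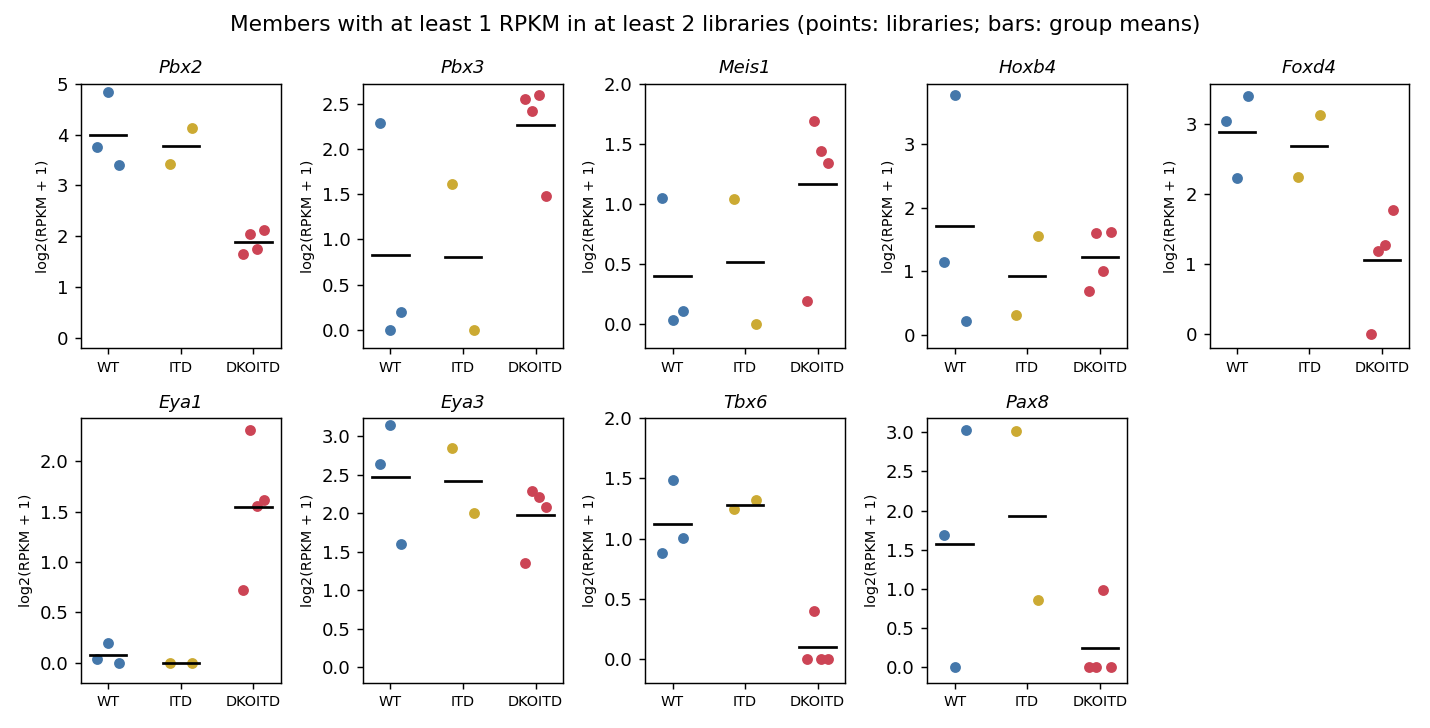
Level of the 9 tested members in every library as log2(RPKM + 1), 1 panel a gene, with points for libraries and horizontal bars for group means of WT, ITD and DKOITD. Pbx2, Foxd4 and Tbx6 have all DKOITD points below all WT points, and Eya1 has all DKOITD points above them.

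Foxd4, a forkhead gene of the D class (chr19:24899236-24901197, minus strand), was at 0, 1.28, 1.42 and 2.42 RPKM in DKOITD, 3.73 and 7.71 in ITD, and 7.22, 3.66 and 9.57 in WT. All DKOITD libraries lay below all others, and DKOITD 1 had no read, where 0 allows up to 3 reads. The difference of -1.83 ± 0.55 was at the edge of the threshold (adjusted p = 0.0486 by limma). The call ended under 16 of 19 alternatives, with adjusted p from 0.0194 to 0.667 over all 19. Leaving out any single library other than DKOITD 4 or WT 2 ended it, with adjusted p from 0.0582 (ITD 1) to 0.134 (DKOITD 1).

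Eya1 (chr1:14168954-14310235, minus strand), a transcriptional coactivator and phosphatase of kidney and ear formation, was at 0.649, 3.97, 1.94 and 2.07 RPKM in DKOITD, at 0 in both ITD libraries, and at 0.0246, 0.142 and 0 in WT. The DKOITD values rested on 34, 63, 91 and 135 reads, those of WT on 2, 7 and 0. All 4 DKOITD libraries lay above every other library. The difference from WT was 1.48 ± 0.43 (adjusted p = 0.0441), a call that ended under 15 of 19 alternatives (adjusted p from 0.0164 to 0.495 over all 19). Leaving out any single library other than DKOITD 1 ended it, with adjusted p from 0.0623 (ITD 2) to 0.101 (DKOITD 3). Eya3, a broadly expressed paralogue, was at 1.55 to 3.9 RPKM in DKOITD, 6.15 and 3.02 in ITD and 2.04 to 7.81 in WT, with overlapping groups (-0.48 ± 0.52, adjusted p = 0.555).

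Tbx6, the T-box factor of presomitic mesoderm, was at 0, 0.319, 0 and 0 RPKM in DKOITD, 1.37 and 1.49 in ITD, and 0.841, 1.80 and 1.01 in WT. DKOITD held 2 Tbx6 reads in all, against 41 in ITD and 82 in WT, and the groups did not overlap. The difference of -1.02 ± 0.38 from WT missed the threshold (adjusted p = 0.0914 by limma) and passed with no filter on low values (adjusted p = 0.0350), with a lower filter (0.0494) and after quantile normalization (0.0491). Pax8, a thyroid and kidney factor, was at 0, 0, 0.987 and 0 in DKOITD, 7.08 and 0.810 in ITD, and 2.22, 0 and 7.14 in WT. WT 2 had no Pax8 read, so the groups overlapped (-1.32 ± 0.71, adjusted p = 0.233). Hoxb4, a HOX gene of blood stem cells, was at 0.614 to 2.08 RPKM in DKOITD, 0.249 and 1.93 in ITD and 1.21, 12.6 and 0.168 in WT, where WT 2 alone was high (-0.48 ± 0.74, adjusted p = 0.689).

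The 7 marker sums given above that do not overlap (neutrophil, T lineage, stem and progenitor and erythroid lower in DKOITD, conventional and plasmacytoid dendritic and B lineage higher) separate DKOITD from WT as the 3 called members do, and their part in these results was not tested. When each library was scaled to its recovered reads, the median of all genes in DKOITD against WT moved from 0.17 to 0.74 and the split of calls from 807 higher and 573 lower to 2535 and 247. Pbx2 (-1.46) and Eya1 (1.74) kept their calls on that scale, and Foxd4 (-1.34, adjusted p = 0.0962) did not. After quantile normalization the split was 678 higher and 767 lower, and Eya1 (0.78, adjusted p = 0.292) lost its call. The label number series leaves only DKOITD 4 with the WT libraries, and with it as a term none of the 3 members passed and 4 genes of the table did. Direction was the same under all 19 alternatives for each of the 3.

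In DKOITD against ITD, the comparison that differs by Rag1Cre+ alone among the labelled alleles, no member passed, where 0.212% of all genes did. The members' median log2 difference was -0.44, against 0.11 for all genes. At an unadjusted p under 0.05 stood 4 of the 9 members and 15.7% of all genes. Groups did not overlap for the same 4 members as against WT, Pbx2, Foxd4 and Tbx6 lower and Eya1 higher (the filter favoured a difference in the latter 2), and for 31.3% of all genes (17.3% higher and 14% lower). The differences were -1.88 ± 0.52 for Pbx2 (adjusted p = 0.107), -1.62 ± 0.62 for Foxd4 (0.231), 1.55 ± 0.49 for Eya1 (0.145) and -1.18 ± 0.43 for Tbx6 (0.199). With library weights in limma Pbx2 passed (-1.91, adjusted p = 0.0317). Eya1 had no read in ITD, where a count of 0 allows up to 0.147 RPKM (3 reads, per library, counting error only). The DKOITD libraries were at 0.649 to 3.97 RPKM. The other members gave 1.45 ± 0.73 for Pbx3 (adjusted p = 0.367), -1.69 ± 0.81 for Pax8 (0.347), 0.65 ± 0.57 for Meis1 (0.626), -0.44 ± 0.59 for Eya3 (0.774) and 0.29 ± 0.84 for Hoxb4 (0.904). Both comparisons use the same 4 DKOITD libraries.

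In ITD against WT no member passed, 0.0092% of all genes did, and the groups overlapped for all 9 members, where they did not for 19.1% of all genes. At an unadjusted p under 0.05 stood 0 of the 9 members and 7.93% of all genes. The members' median log2 difference was -0.04, against 0.00 for all genes. The widest difference was -0.77 ± 0.88 for Hoxb4 (adjusted p = 0.833). Pbx2 differed by -0.23 ± 0.55, Foxd4 by -0.21 ± 0.66, Eya1 by -0.08 ± 0.52 and Tbx6 by 0.16 ± 0.45. With 2 ITD libraries these standard errors leave room for differences of either sign.

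**Figure D4:**
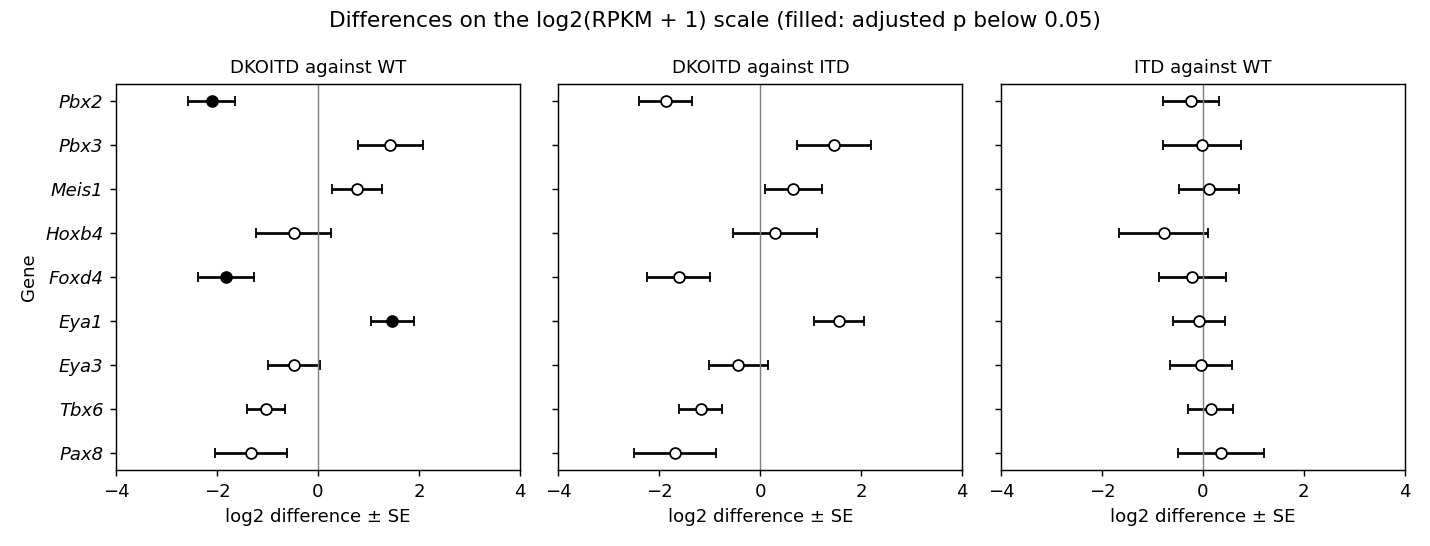
Log2 difference ± SE of the 9 tested members in the 3 comparisons, on the log2(RPKM + 1) scale, with filled circles for an adjusted p below 0.05 by limma. Pbx2, Foxd4 and Eya1 are filled in DKOITD against WT, no circle is filled elsewhere, and in ITD against WT all circles lie within 0.77 of 0.

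The HOX A cluster, which blood progenitors share with many acute leukaemias, had more reads in each DKOITD library than in any WT library, though few, and none of its genes counted here was read in all 4. The 10 of its genes described here together had 26, 11, 58 and 82 reads in DKOITD 1 to 4, 0 and 32 in ITD, and 0, 6 and 1 in WT. As summed RPKM these were 0.996, 1.64, 3.07 and 2.61 in DKOITD, 0 and 1.45 in ITD, and 0, 0.207 and 0.0380 in WT. DKOITD and WT did not overlap, and ITD 2 lay inside the DKOITD range. The group means were 2.08 ± 0.937 (SD, n = 4), 0.724 ± 1.02 (n = 2) and 0.0818 ± 0.110 (n = 3). None of the 10 reached 1 RPKM in 2 libraries, so none entered the main tests. The HOX A sum was chosen after seeing the data. Other family sums that did not overlap were all lower in DKOITD. Meis and Pbx had 8.16 to 9.69 RPKM in DKOITD and 9.74 to 27.8 in WT. That separation was narrow and came from Pbx2 alone (2.16 to 3.38 in DKOITD, 9.52 to 27.7 in WT), whose gene model overlaps Gpsm3. The means of Pbx3, Meis1, Meis3 and Pbx4 were higher in DKOITD than in WT. Tbx had 0 to 0.319 and 0.841 to 1.90, and Fox 0 to 2.42 and 3.66 to 10.1. The separation of Tbx came from Tbx6 alone and that of Fox from Foxd4 alone, so none of these sums shows a decrease across a family. Summed over all members, RPKM was 14.6 to 23.1 in DKOITD, 34.3 and 35.4 in ITD and 31.1 to 61.4 in WT. The summed stem and progenitor markers ran the other way from HOX A, at 12.7 to 17.5 RPKM in DKOITD and 24.1 to 40.1 in WT. The single genes of that list were split. Of the 4 tested, limma called Prom1 lower in DKOITD (mean 4.22 RPKM, against 26.7 in WT) and Cd34 higher (7.33, against 0.0220). The number of these markers above 0 was 5 to 6 in DKOITD and 4 to 5 in WT. The conventional dendritic sum was higher in DKOITD (9406 to 38055, against 44.3 to 1202). The part of either in the HOX A reads was not tested.

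Hoxa7 was read in 3 of the 4 DKOITD libraries (15, 20 and 59 reads in DKOITD 1, 3 and 4), supplied most of the HOX A reads of DKOITD 1 and 4, and was at 0.637, 0, 0.947 and 2.02 RPKM in DKOITD, 0 in ITD, and 0, 0.0453 and 0 in WT. With no filter on low values its difference from WT was 0.80 ± 0.32 (adjusted p = 0.197 by limma). Hoxa10 was also read in 3 of them, with 2, 27 and 10 reads in DKOITD 2, 3 and 4, and in WT 2, with 3. Others were read mainly in 1 DKOITD library each: Hoxa3 in DKOITD 1 (11 reads), Hoxa2 in DKOITD 2 (9) and Hoxa4 in DKOITD 3 (11). Hoxa9, the HOX gene most tied to myeloid leukaemia, was read in DKOITD 4 (12 reads, 0.352 RPKM), WT 2 (2 reads) and WT 3 (1 read) only. The 32 ITD reads came from ITD 2, 30 of them of Hoxa5 (1.36 RPKM). Hoxa6, Hoxa11 and Hoxa13 had no read in any library. Hoxa4 and Hoxa5 lie inside the long Hoxa3 gene model and several antisense genes run through the cluster, so the reads of overlapping genes there cannot be told apart with certainty.

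**Figure D5:**
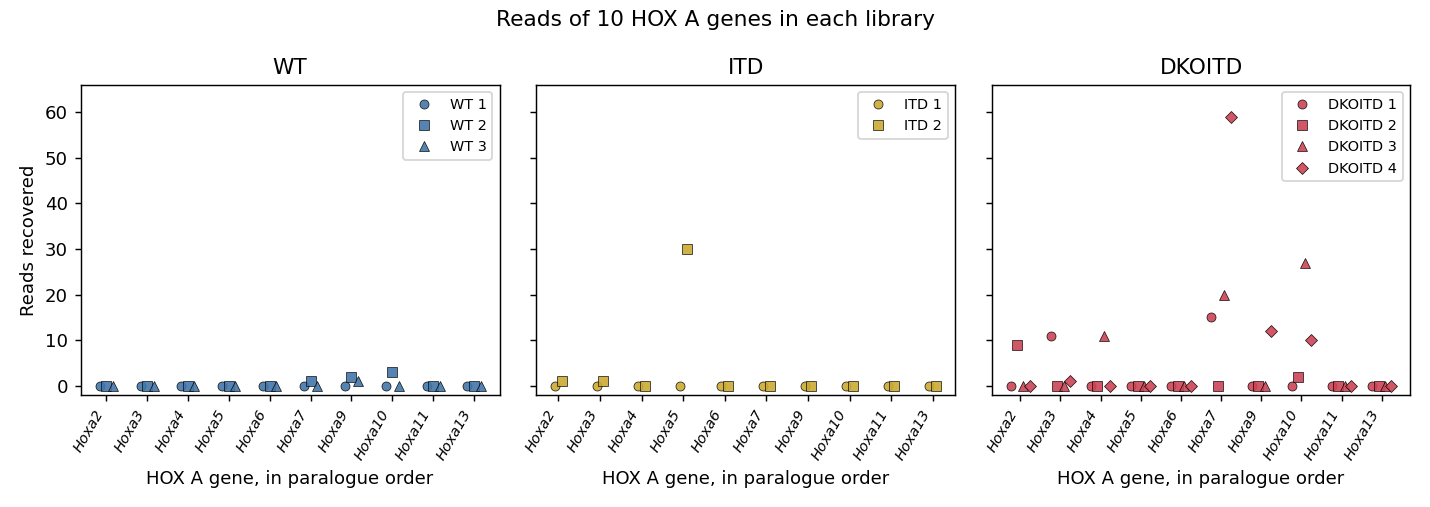
Recovered reads of 10 HOX A genes, in paralogue order, in each WT, ITD and DKOITD library, with a marker shape for each library. The highest point is Hoxa7 in DKOITD 4 with 59 reads, ITD has Hoxa5 in ITD 2 with 30, and no WT point exceeds 3.

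HOX B was read in every library, led by Hoxb4 except in WT 3, and was highest in WT 2. Summed RPKM over its 10 genes was 0.903, 2.17, 1.01 and 2.08 in DKOITD, 0.249 and 2.41 in ITD, and 1.21, 16.2 and 0.958 in WT. Hoxb4 (chr11:96318267-96321638, plus strand) made 12.6 RPKM of the WT 2 value, with 365 reads, and Hoxb3 3.49 RPKM, with 147. Hoxb3 was at 0.290, 0.147, 0 and 0 in DKOITD, 0 and 0.481 in ITD, and at 0 in the other WT libraries. In WT 3 the anterior gene Hoxb1 was at 0.790 RPKM (19 reads) and in no other library. HOX C was read only as Hoxc13 in WT 1 (2 reads), and HOX D only as Hoxd1 in WT 2 and Hoxd10 in WT 1 (3 reads each).

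In all, 10 members reached 1 RPKM in a single library each, 5 of them in DKOITD, 2 in ITD and 3 in WT (50%, 20% and 30%). Of the 1136 genes of the whole table that did so, 56.8% were in DKOITD, 17.4% in ITD and 25.8% in WT. Besides Hoxa2 (1.46 RPKM), Hoxa4 (1.33), Hoxa5, Hoxa7 and Hoxb3, they were Pbx4 in DKOITD 1 (2.03 RPKM, 33 reads), Meis3 in DKOITD 4 (1.46 RPKM, 39 reads), Sox18 in ITD 1 (1.45 RPKM, 11 reads), and Sox13 (2.13 RPKM, 85 reads) and Sox6 (1.33 RPKM, 64 reads) in WT 2. Thus 3 of the 10, Hoxb3, Sox13 and Sox6, came from WT 2, the library that stood apart, which held 10.7% of the 1136 genes. Sox13 is known from gamma delta T cells and Sox6 from red cell maturation. WT 2 had 7 of 10 NK and cytotoxic markers above 0, where WT 1 had 1 and WT 3 had 2, and 5426 RPKM over 9 erythroid markers, between 17.8 in WT 3 and 17156 in WT 1. The part of either in these values was not tested.

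The remaining 29 members above 0 never reached 1 RPKM, and 19 of them had at most 3 reads in their highest library. The highest were Hoxa10 in DKOITD 3 (0.794 RPKM), Hoxb1 in WT 3 (0.790), Pax6, a factor of eye and pancreas, in ITD 2 (0.741, 32 reads) and Eya4 in ITD 2 (0.603, 29 reads). Sox15 was read in both ITD libraries (0.562 and 0.225 RPKM) with 3 reads each and in no other. Sox4, a factor of lymphoid progenitors and leukaemia, was read in DKOITD 2, 3 and 4 with 1, 11 and 1 reads (0.0926, 0.344 and 0.0226 RPKM) and in no ITD or WT library. Sox12 had 19 reads in DKOITD 1 (0.355 RPKM). Foxd2 had 13 reads in ITD 2 (0.423 RPKM) and 15 in WT 3 (0.494 RPKM). Lhx2 had 4 reads in ITD 1 (0.373 RPKM). The Tbx, Dlx, Irx and Nkx genes below 1 RPKM had 1 or 2 reads each, in single libraries: Tbx3, Tbx22, Tbx20, Dlx3, Irx3, Nkx6-1 and Nkx6-2.

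The genes that set the state of these loci were compared over lists drawn up with earlier results known. Of 19 tested activators of HOX genes (the MLL complex and trithorax group), none passed in DKOITD against WT, where 12.7% of all genes did, and 2 had an unadjusted p under 0.05, where 30.2% of all genes did. Their median log2 difference was -0.57 where that of all genes was 0.17, and Cdx1, Cdx2 and Cdx4, direct HOX inducers, were at 0 in all libraries. Of 11 PRC2 subunits (median 0.14), 1 fell, Phf1, an accessory subunit, from 16.1 ± 12.9 RPKM in WT (SD, n = 3) to 2.0 ± 1.45 in DKOITD (n = 4), a log2 difference of -2.37 ± 0.62 (adjusted p = 0.0291 by limma). Its WT values were 13.3, 30.3 and 4.87 RPKM, and without WT 2 the WT mean was 9.09 ± 5.97 (n = 2) and the call ended (-1.77 ± 0.60, adjusted p = 0.0999), as it did without DKOITD 1, DKOITD 2, DKOITD 3 or WT 1 (adjusted p from 0.0580 to 0.0856). Of 17 tested PRC1 subunits (median 0.40), 1 fell, Yaf2, from 31.4 ± 3.27 to 9.71 ± 2.46 RPKM (-1.62 ± 0.33, adjusted p = 0.0109 by limma), a call kept with any 1 library left out. Of 13 tested homeobox genes outside the 135 that belong to the TALE class or to blood (median -0.46), Tgif1, a TALE repressor, rose (1.95 ± 0.48, adjusted p = 0.0230) and Hlx, a homeobox gene of blood cells, fell (-2.59 ± 0.59, adjusted p = 0.0168). The call of Tgif1 ended without DKOITD 1, DKOITD 2 or WT 2 (adjusted p from 0.0544 to 0.0666) and that of Hlx without DKOITD 3 or WT 2 (0.0554 and 0.0547), and without WT 2 the mean of Hlx in WT was 13.0 ± 0.430 RPKM (n = 2) where that of all 3 was 25.1 ± 20.9. At an unadjusted p under 0.05 stood 4 of the 11 PRC2 genes, 4 of the 17 PRC1 genes and 6 of the 13 homeobox genes. The last list held 56 other genes known as PRC2 targets, developmental factors together with the CDK inhibitor genes Cdkn2a and Cdkn2b. Of these 56, 49 were at 0 in every library. The 1 tested was Cdkn2b, so no developmental factor of that list was tested. Cdkn2b was at 2.80, 1.77, 4.71 and 0 RPKM in DKOITD and 0 in all ITD and WT libraries (1.48 ± 0.54, adjusted p = 0.0896 by limma). Of the 61 genes of these 5 lists that were tested, none passed by limma in DKOITD against ITD or in ITD against WT, and 5 (8.20%) had an unadjusted p under 0.05 in each, where 15.7% and 7.93% of all genes did.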

How the data were processed

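Expression of 9 libraries of sorted Mac1+ bone marrow cells was taken from the authors' deposited RPKM table (DKOITD n = 4, ITD n = 2, WT n = 3, grouped by the labelled genotype). STAR 2.4.2a, SAMtools 1.1, HTSeq 0.6.1p1 and mm10 are named in the submitters' processing notes. Annotation and counting settings were not given in the sources used here. RPKM values were whole multiples of 1 read within each gene for 15564 of the 15566 genes above 0 (99.99%, tolerance 0.0001). This gave the depth term of each library and the reads per gene, taking the smallest gene length between 20 and 30000 bases that fitted. These totals can undercount.

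Members were matched by symbol. A few genes that match are not reported here and enter no count of members, though they stay in the fit over all genes. The members and gene lists were chosen with earlier results of these data known. Log2(RPKM + 1) of the 10868 genes at 1 RPKM or more in at least 2 libraries was fitted with limma 3.58.1 (R 4.3.3; empirical Bayes with trend) over all 9 libraries, 3 group means and 6 residual degrees of freedom, two-sided, with Benjamini-Hochberg adjustment over all genes tested and a threshold of 0.05. The fit was tested on simulated data. Promoter windows came from RefSeq (GRCm38.p6), gene positions and overlaps from GENCODE on mm10. Named genes are all tested members, all at 1 RPKM in 1 library, the highest of each family below that, and some others. Alternatives covered the pseudocount, filters, scaling, libraries in the fit, library weights, replicate number, label number series and omitted libraries. The summed HOX A values with their alternatives, and the omission of each library for the called genes of the 5 lists, were chosen after seeing the data.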

Additional observations from a re-analysis of the deposited data

Results flagged for a closer look

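In groups of 4 libraries, the highest or lowest value was compared with the others over 16 measures (Dixon's gap test at the 95% level, which flags about 1 in 20 groups of untied values by chance), and 2 stood out. In both, 3 of the 4 values were 0, so the gap equalled the whole range whatever the remaining value, and that rate does not apply. Pax8 was at 0.987 RPKM in DKOITD 3, with 27 reads, while the other 3 DKOITD libraries were at 0. Tbx6 was at 0.319 RPKM in DKOITD 2, with 2 reads, while the other 3 were at 0.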

How the results depend on the processing

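Across the settings tried, no called value changed sign. Genes called in DKOITD against WT (1380) became 733 with no filter on low values, 2782 per recovered read, 884 with a replicate block, 4 with a term for the label number series, 792 without WT 2 and DKOITD 2 together, and 541 to 1962 with 1 library left out. Members called there (3) became 2 with no filter, 1 with only the 2 groups in the fit, 1 with library weights, 1 with the replicate block, 0 with the series term, 0 without WT 2 and DKOITD 2, and 1 to 2 with 1 library left out. Genes called in DKOITD against ITD (23) became 15 with a filter of 0.1 RPKM, 42 after quantile normalization, 268 per recovered read, 46 with only the 2 groups, 526 with library weights, 57 with the replicate block, 0 with the series term, 73 without WT 2 and DKOITD 2, and 0 to 156 with 1 library left out. Members called there went from 0 to 1 with library weights and stayed at 0 with 1 library left out. Genes called in ITD against WT (1) became 2 with a pseudocount of 0.1, 3 with no filter, 0 with only the 2 groups, 0 with the replicate block, and 0 to 47 with 1 library left out. The causes were not tested. Of the values of single tested members, 475 stayed on their side of the threshold, 33 lost a call and 5 gained one.

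A detection threshold of 0.1 RPKM gave means of 11.5 members in DKOITD, 12 in ITD and 9.33 in WT, and the shallowest depth gave 10.5 in WT. With 1 library left out, the mean number above 0 ranged over 14 to 15.3, 12 to 16 and 16 to 19.5, that at 1 RPKM or more over 6.67 to 8.33, 6 to 8 and 6 to 7.5, and summed HOX A RPKM over 1.75 to 2.44, 0 to 1.45 and 0.0190 to 0.123. ITD 2 alone supplied the HOX A reads of its group. No pairing of libraries by replicate number was seen. Deviations from group means of same-numbered libraries correlated at -0.0444 to 0.0707 over 7 pairs, and at -0.127 to 0.166 over the other 19. DKOITD 1, for example, correlated best with WT 3 (0.166). The deviations of the 2 ITD libraries mirror each other (0.0167 and -0.0167 with DKOITD 1). The pairs are thus not independent, and a weak pairing could be missed.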
